A study of Rattus norvegicus with 24 samples.

Results

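After 24 h of IRE1α induction, 33 of the 26689 gene IDs measured in rat INS1 cells were at or below 0.5 times their uninduced level, yet stood above it when the induced cells were also given KIRA9. They were chosen on mean CPM (a gene's counts scaled to a common library total, counts per M) at 24 h. The uninduced mean had to be at least 5 CPM, the induced mean at most 0.5 times and the KIRA9 mean at least 1.25 times the uninduced mean, and every KIRA9 library had to lie above every uninduced library. The first condition held for 10683 IDs, of which 847 (7.93%) also met the second. Of these, 38 met the third and 34 (4.01% of the 847) the fourth. From the 34, 1 was left out because it belonged to 10 IDs set aside by name, which left the 33 members described here.

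IRE1α is a sensor in the membrane of the endoplasmic reticulum, the compartment in which beta cells fold proinsulin. When unfolded protein builds up, IRE1α molecules assemble and phosphorylate each other, and their RNase domain then splices the mRNA of the transcription factor XBP1. Under strong activation the same RNase cleaves other mRNAs at the membrane, a process known as regulated IRE1-dependent decay. KIRA compounds bind the kinase domain and attenuate the RNase through it, while the title of the series describes PAIR compounds as partial antagonists that compete with ATP.

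INS1 cells come from a rat insulinoma and stand in for pancreatic beta cells in culture. All of them carried a transgene for mouse IRE1α that doxycycline switches on. RNA was taken at 4 h and 24 h from 4 treatments, with 3 libraries in each of the 8 groups. Cells given doxycycline with KIRA9, doxycycline with PAIR1, and doxycycline with vehicle (called induced) were set beside uninduced cells, which received vehicle and no doxycycline. The doses are not stated, and no group received a compound without doxycycline. Doxycycline itself and the transgene therefore cannot be told apart, nor can an effect of a compound on IRE1α be told apart from any other effect it has. For the 6 induced vehicle libraries the time characteristic contradicts the title, which was followed here.

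The deposited counts carry Ensembl IDs only. A search of the available rat gene table found 0 of them. The members are therefore described by their values, 4 of them by ID, and no role is given to any of them. For the same reason the cell line was not checked against beta cell markers. Library totals ran from 12.6 to 23.8 M counts. The smallest count of any member in any library was 19, so that each member was detected in each of the 24 libraries, and the filter on low counts removed 0 of the 33. In 6 libraries, 3 of them among the 9 that the choice of members used, 41 IDs picked for being high there held 0.667 to 0.744% of counts, against 0.0705 to 0.0853% in the other 18. None of the 33 members was among these 41 IDs, and 0 of the 6 were KIRA9 libraries. The 3 therefore lie in the induced and uninduced groups at 24 h, and leaving them out leaves one of these groups with a single library. The conditions then gave 32 IDs, of which 28 were among the 33, a check that rests partly on that single library.

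The members covered a wide range of abundance. Their uninduced means at 24 h ran from 7.27 to 1015 CPM with a median of 62.4, and 15 were at or above 100 CPM, 15 between 10 and 100, and 3 below 10. Together they made up 0.747 ± 0.006% of all counts with KIRA9 at 24 h, 0.538 ± 0.005% with PAIR1, 0.220 ± 0.002% in induced and 0.549 ± 0.009% in uninduced cells (SD, n = 3). At 4 h the shares were 0.860 ± 0.009% with KIRA9, 0.718 ± 0.007% with PAIR1, 0.596 ± 0.001% in induced and 0.617 ± 0.004% in uninduced cells. A few abundant members weigh most in these sums. In bulk RNA a lower level per cell and fewer cells holding the transcript cannot be told apart.

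**Figure D1:**
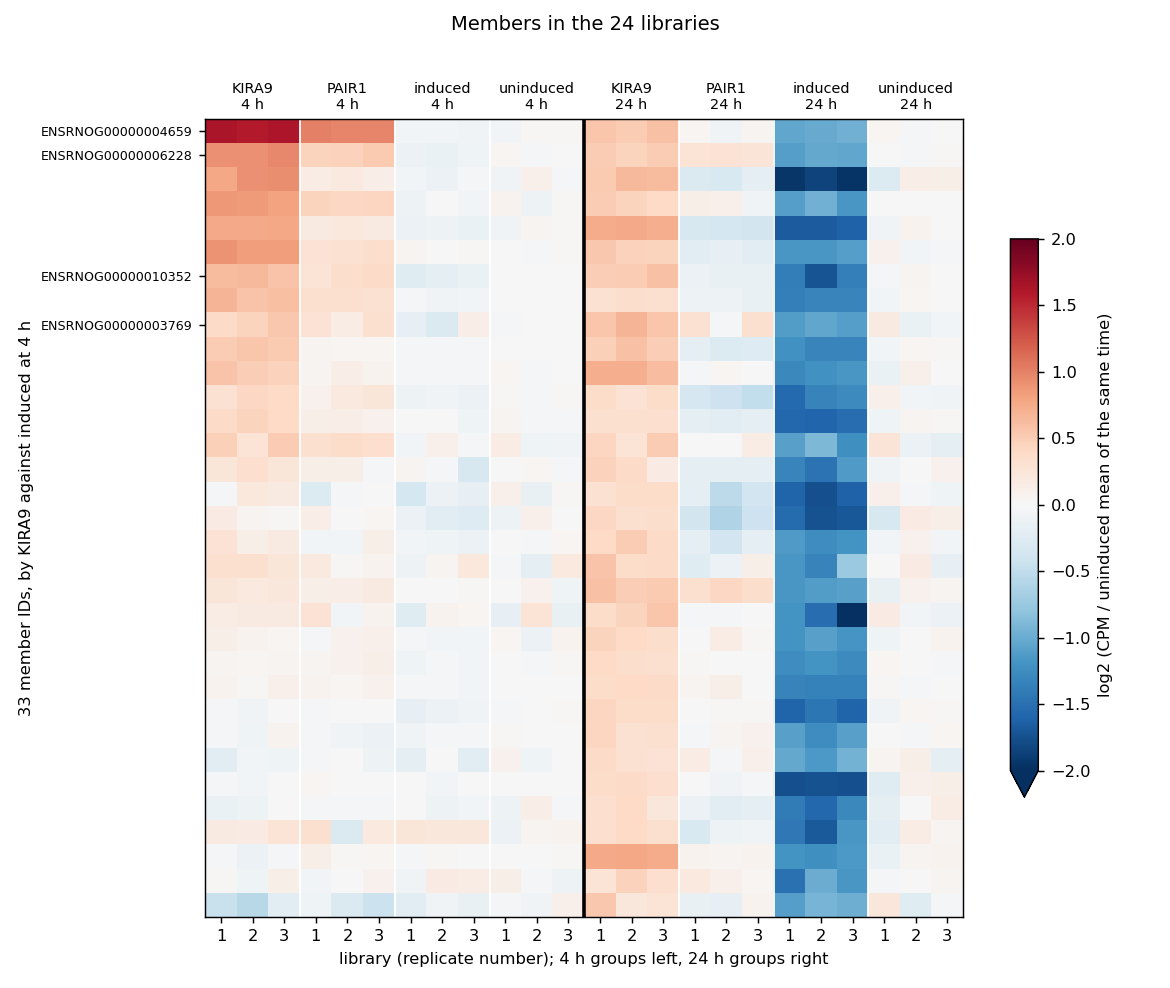
Level of the 33 members (rows) in the 24 libraries (columns), as log2 of the CPM over the uninduced mean of the same time, with rows ordered by the change with KIRA9 against induced cells at 4 h. The scale ends at -2 and 2; at 24 h induced libraries are low and KIRA9 libraries high by the choice of members, while at 4 h the upper rows are high with KIRA9 and, more weakly, with PAIR1.

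The values at 24 h that chose the members are given as a description. With KIRA9 the mean was 1.25 to 1.69 times the uninduced mean, with a median of 1.32, and 5 members were at 1.5 times or more. In induced cells it was 0.264 to 0.4999 times the uninduced mean, with a median of 0.424. Over all 13760 IDs tested below, 17.3% had every KIRA9 library above every uninduced one and 25.7% every induced library below. KIRA9 means were 2.56 to 5.75 times the induced means. The members nearest the limits from inside had KIRA9 ratios of 1.25 and 1.25, induced ratios of 0.4999 and 0.498, uninduced means of 7.27 and 8.47 CPM, and gaps of 0.0246 and 0.245 CPM between the lowest KIRA9 and the highest uninduced library. The nearest IDs that failed 1 condition only had KIRA9 ratios of 1.24 and 1.24 (72 such IDs), induced ratios of 0.511 and 0.514 (605 IDs), uninduced means of 3.25 and 3.22 CPM (15 IDs), or gaps of -0.392 and -0.653 CPM, which are overlaps (4 IDs). Most KIRA9 ratios lay close to the limit, with an upper quartile of 1.44. Replicates differed little for most members: the median coefficient of variation was 3.49% with KIRA9, 4.6% in induced and 5.69% in uninduced cells. The widest was 47.0%, for a member with 3.71, 2.95 and 1.28 CPM in the induced libraries, against 9.46, 8.16 and 7.80 CPM in uninduced ones.

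PAIR1 libraries at 24 h had no part in the choice of members, although the groups they are set against did, so their place is described without a test. With PAIR1 the means of the members lay on both sides of the uninduced means. The PAIR1 mean was 0.728 to 1.28 times the uninduced mean, with a median of 0.975, and 19 of 33 members were within 10% of it. The share of tested IDs within 10% was not worked out, and their median ratio was 1.02. The PAIR1 mean was above the uninduced mean in 15 members and below it in 18. Among the 809 IDs that induction also brought to 0.5 times or less but KIRA9 did not bring to 1.25 times, the median PAIR1 ratio was 0.720. All 3 PAIR1 libraries lay above all 3 uninduced libraries for 2 of the 33 members and below them for 11, and 20 overlapped. Over all tested IDs, 21.6% lay wholly above and 16.2% wholly below. A single member, with a PAIR1 ratio of 1.28, would have met the 1.25-fold limit with PAIR1 as it did with KIRA9 (ratio 1.45). It had 129.8, 139 and 133 CPM with PAIR1, against 94.0, 110.5 and 109 CPM in uninduced libraries.

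Relative to the other 2 induced groups at 24 h, PAIR1 stood between them for every member. PAIR1 libraries lay wholly below KIRA9 libraries for 33 of 33 members, where 14.3% of tested IDs did so, and wholly above induced libraries for 33 of 33, where 26.1% did. Since KIRA9 was required to be high and induced cells low, nothing is read from these counts. KIRA9 means were 1.13 to 2.12 times the PAIR1 means, with a median of 1.40. The widest ratio belonged to a member with 306, 308 and 302 CPM with KIRA9, against 146, 144 and 142 CPM with PAIR1. That member stood at 57.5, 57.3 and 59.2 CPM in induced and 173, 192 and 182 CPM in uninduced libraries, so that PAIR1 was below and KIRA9 above the uninduced range.

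None of the 4 h libraries had been used to choose the members. The 4 h groups were compared with edgeR's quasi-likelihood method across all 13760 IDs, calling an adjusted p below 0.05. The spread behind the p-values was estimated from all 24 libraries, the 9 that chose the members included. Against induced vehicle cells at 4 h, 20 of the 33 members rose with KIRA9, 0 fell and 13 did not pass the test, where 6.01% of all tested IDs were called higher and 5.66% lower. The count of 0 falls stayed 0 at an unadjusted p below 0.05, where 11.8% of tested IDs were lower, and with DESeq2, which called 5.44% of them lower. The 20 changes ran from 0.10 to 1.67 on the log2 scale with a median of 0.55, and 8 were at least 1.5-fold. All 3 KIRA9 libraries lay above all 3 induced libraries for 24 members and below them for 1, where 14.1% and 13.8% of tested IDs did so. Without the 6 libraries that stand apart, 18 rose and 0 fell, where 7.17% of tested IDs were called in either direction. With only the compared libraries in the fit, 20 rose and 0 fell, where 8.65% were called. The median fitted change was 0.28 over the 33 members and -0.00 over all tested IDs.

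With PAIR1 the same comparison gave 13 members that rose, 0 that fell and 20 that did not pass the test, where 2.31% of tested IDs were called higher and 0.887% lower. Here too the falls were 0 at an unadjusted p below 0.05, where 5.62% of tested IDs were lower, and with DESeq2, which called 0.967% of them lower. These changes were smaller, from 0.10 to 1.05 with a median of 0.35, and 2 were at least 1.5-fold. PAIR1 libraries lay wholly above induced ones for 21 members and wholly below for 0, where 9.93% and 9.37% of tested IDs did so. Without the 6 libraries that stand apart, 10 rose and 0 fell, where 1.65% of tested IDs were called in either direction. Over the 33 members the median change with PAIR1 was 0.14, against -0.00 over all tested IDs. Both compounds were compared with the same 3 induced libraries.

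**Figure D2:**
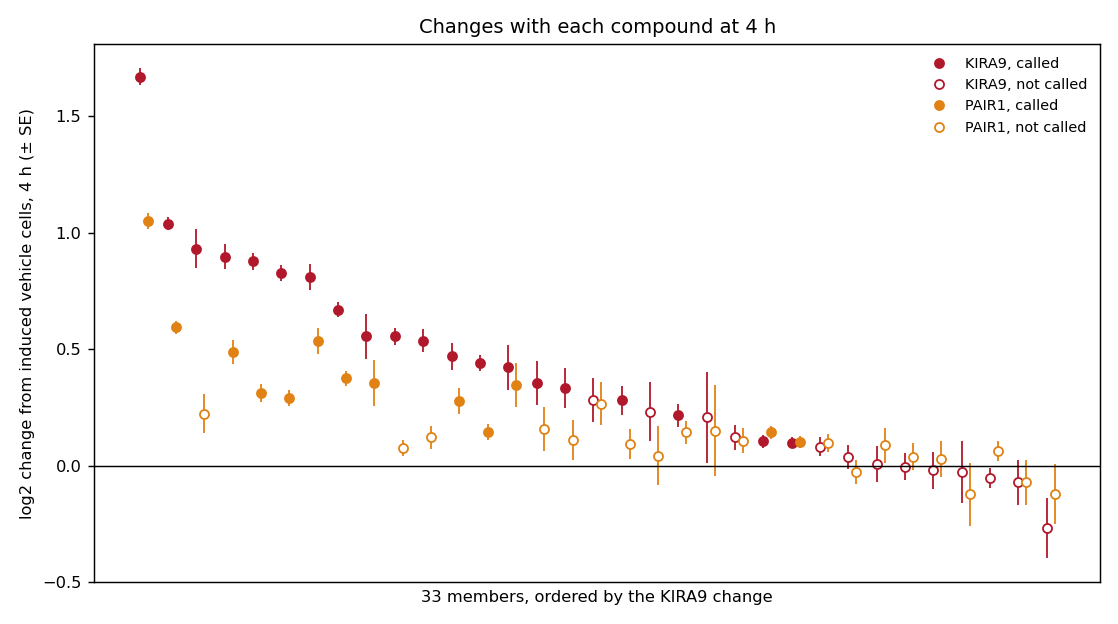
Log2 change of each of the 33 members from induced vehicle cells at 4 h, with KIRA9 (red) and PAIR1 (orange), as fitted value ± SE over 3 against 3 libraries. Filled points passed an adjusted p below 0.05, which 20 members did with KIRA9 and 13 with PAIR1, and members run from the largest KIRA9 change, 1.67, to the smallest, -0.27.

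The compounds were also compared directly at 4 h. In this contrast 11 members were higher with KIRA9 than with PAIR1, 0 were lower and 22 did not pass the test, where 1.24% of tested IDs were higher and 0.821% lower. At an unadjusted p below 0.05, 15 were higher and 1 was lower, where 5.67% of tested IDs were higher and 6.65% lower. DESeq2 called 12 higher and 0 lower, and 1.31% and 1.08% of tested IDs. The 11 differences ran from 0.28 to 0.71 log2 units. For 23 of 33 members the means stood in the order KIRA9, PAIR1, induced, from high to low, an order found in 23.2% of tested IDs. The largest difference belonged to a member with 54.2, 59.4 and 60.4 CPM with KIRA9, against 35.1, 36.3 and 34.8 CPM with PAIR1 (log2 difference 0.71 ± 0.08 SE, edgeR adjusted p = 5.3e-06). Its induced libraries held 30.6, 29.3 and 31.2 CPM and its uninduced ones 30.04, 34.1 and 30.9, so that the KIRA9 libraries stood apart from the other 9 at this time. Because the doses are not given, these contrasts compare the treatments as applied.

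With induction alone the members had changed little at 4 h, and mostly downward. In edgeR's test 0 of 33 were called in either direction, where 0.0363% of tested IDs were called higher and 0.262% lower. At shares this low a count of 0 says little about the members. Of the 809 other IDs at 0.5 times or less with induction at 24 h, 32 were called lower (3.96%) and 0 higher. Their median change was -0.05 log2 units. At an unadjusted p below 0.05, 0 members were higher and 5 lower, where 2.97% of tested IDs were higher and 3.08% lower. DESeq2 called 0 higher and 2 lower, and 0.0509% and 0.458% of tested IDs. The fitted changes of the members ran from -0.21 to 0.24 log2 units with a median of -0.05. They were below 0 for 26 of 33 members, 588 of the 809 other IDs and 6747 of the 13760 tested IDs. All 3 induced libraries lay below all 3 uninduced libraries for 14 members and above them for 1, where 6.6% and 5.06% of tested IDs did so.

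Against uninduced cells at 4 h, 16 members rose with KIRA9, 1 fell and 16 did not pass the test, where 5.44% of tested IDs were called higher and 5.49% lower. The rises ran from 0.20 to 1.62 log2 units, with a median of 0.58. The KIRA9 mean was at least 1.25 times the uninduced mean for 14 of 33 members, as it was for 9.05% of tested IDs. Levels above the uninduced ones were therefore present with KIRA9 at 4 h for some of the members. Whether these rises depend on induction was not tested, since no group received KIRA9 without doxycycline. The member that fell was the least abundant one, with 6.56, 6.08 and 7.67 CPM with KIRA9, against 8.73, 8.54 and 9.61 CPM in uninduced libraries (log2 change -0.40 ± 0.13 SE, edgeR adjusted p = 0.048). DESeq2, an adjusted p below 0.01 and a fit of the 6 compared libraries alone each called 0 members lower here, and DESeq2 called 5.43% of tested IDs lower. The stricter threshold and the fit of 6 libraries called 5.85% and 8.07% of tested IDs in either direction.

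PAIR1 against the same uninduced libraries gave 7 members that rose and 0 that fell, where 1.56% of tested IDs were called higher and 0.988% lower. At an unadjusted p below 0.05, 14 were higher and 0 lower, where 7.73% of tested IDs were higher and 6.3% lower. DESeq2 called 11 higher and 0 lower, and 1.69% and 1.05% of tested IDs. The 7 changes ran from 0.20 to 1.00 log2 units, and the PAIR1 mean was at least 1.25 times the uninduced mean for 5 members, as it was for 5.92% of tested IDs.

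Among the members, ENSRNOG00000004659 had the largest change at 4 h. It stood at 789.8, 761 and 783 CPM with KIRA9, 512, 499 and 502 CPM with PAIR1, 245, 245 and 243 CPM in induced and 245, 259 and 258 CPM in uninduced libraries. The 4 h groups with a compound did not overlap each other or the vehicle groups, whereas induced libraries lay only just below uninduced ones. The change from induced cells was 1.67 ± 0.04 (SE) with KIRA9 (edgeR adjusted p = 1.8e-19) and 1.05 ± 0.04 with PAIR1 (adjusted p = 3.9e-15), and KIRA9 exceeded PAIR1 by 0.62 ± 0.04 (adjusted p = 8.8e-11). At 24 h its levels were 211, 204 and 215 CPM with KIRA9, 148, 137 and 149 CPM with PAIR1, 70.05, 71.4 and 73.8 CPM in induced and 147, 139.7 and 145 CPM in uninduced libraries. PAIR1 and uninduced libraries overlapped at 24 h, and the log2 ratio of the KIRA9 mean to the uninduced mean was 0.55. At 4 h the fitted log2 change from uninduced cells was 1.62 ± 0.04, and its difference from the 24 h ratio was not tested because the 24 h values chose the member.

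ENSRNOG00000006228 was among the most abundant members, with 1327, 1323 and 1376 CPM with KIRA9 at 4 h, 959.7, 969 and 1015 CPM with PAIR1, 647, 645 and 664 CPM in induced and 726, 682 and 704 CPM in uninduced libraries. The 4 groups stood apart at 4 h, in the order KIRA9, PAIR1, uninduced, induced. The log2 change from induced cells was 1.04 ± 0.03 (SE) with KIRA9 (edgeR adjusted p = 1.8e-17) and 0.59 ± 0.03 with PAIR1 (adjusted p = 2.1e-12). At 24 h the levels were 763, 735 and 764 CPM with KIRA9, 653, 658 and 643 CPM with PAIR1, 251, 265 and 263 CPM in induced and 538, 533 and 546 CPM in uninduced libraries. This was 1 of the 2 members whose PAIR1 libraries lay wholly above the uninduced ones at 24 h.

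**Figure D3:**
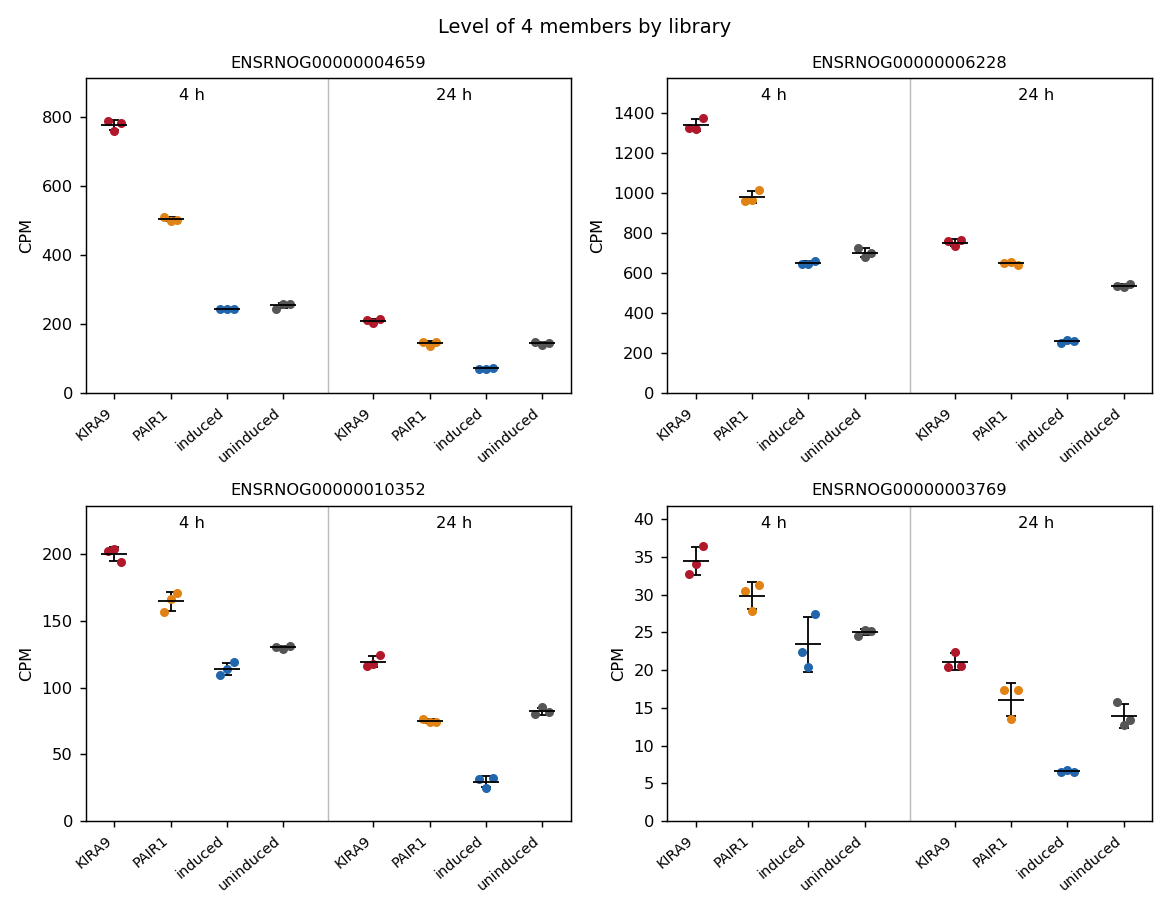
CPM of 4 members in each library (points) with the mean and SD of the 3 libraries of a group (bars), for KIRA9, PAIR1, induced vehicle and uninduced cells at 4 h (left) and 24 h (right); each vertical axis starts at 0. In ENSRNOG00000004659 the KIRA9 libraries at 4 h, at 761 to 789.8 CPM, are the highest of all 24.

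ENSRNOG00000010352 and ENSRNOG00000003769 had, after ENSRNOG00000004659, the largest falls with PAIR1 between 4 h and 24 h. ENSRNOG00000010352 held 76.3, 74.2 and 74.2 CPM with PAIR1 at 24 h, against 157, 167 and 171 CPM with PAIR1 at 4 h (log2 change -1.16 ± 0.06 SE, edgeR adjusted p = 2.1e-13). With KIRA9 it stood at 203, 204 and 194 CPM at 4 h and 116, 118 and 124 CPM at 24 h. Its induced libraries had 109.8, 114 and 119 CPM at 4 h, below the uninduced 130.4, 129 and 132 CPM, and 31.7, 24.8 and 32.0 CPM at 24 h, below the uninduced 79.8, 85.2 and 81.9 CPM. The small difference at 4 h did not pass edgeR's test (log2 change -0.19 ± 0.06, adjusted p = 0.33) and did pass in DESeq2 (adjusted p = 0.026). At 4 h the member rose by 0.81 ± 0.06 with KIRA9 (edgeR adjusted p = 3.3e-10) and by 0.53 ± 0.06 with PAIR1 (adjusted p = 1.7e-06) relative to induced cells.

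ENSRNOG00000003769 held 17.3, 13.6 and 17.4 CPM with PAIR1 at 24 h, against 30.4, 27.9 and 31.3 CPM with PAIR1 at 4 h (log2 change -0.92 ± 0.10 SE, edgeR adjusted p = 1.8e-07). At 4 h it had 32.8, 34.2 and 36.5 CPM with KIRA9, 22.4, 20.4 and 27.4 CPM in induced and 24.6, 25.3 and 25.2 CPM in uninduced libraries. KIRA9 stood above both vehicle groups and PAIR1 above both as well, while induced replicate 3 lay near the lowest PAIR1 library. The change from induced cells was 0.56 ± 0.10 with KIRA9 (adjusted p = 0.00038) and 0.36 ± 0.10 with PAIR1 (adjusted p = 0.048). The call for PAIR1 was lost without PAIR1 replicate 1 (adjusted p = 0.14), 2 (0.058) or 3 (0.20), without induced replicate 1 (0.17) or 2 (0.25), with no filter on low counts (0.050) and when the 6 compared libraries were fitted alone (0.15).

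PAIR1 at 24 h against PAIR1 at 4 h is the contrast over time that uses no library of the choice. In it 22 members fell, 2 rose and 9 did not pass the test, where 17.4% of tested IDs were called lower and 16.9% higher. The falls ran from -0.11 to -1.83 log2 units with a median of -0.65. Uninduced cells, whose 24 h libraries did help to choose the members, had a lower mean at 24 h than at 4 h for 26 of 33, as they did for 52.2% of tested IDs. The median ratio of the uninduced mean at 24 h to that at 4 h was 0.861 over the members, 1.04 over the 809 other IDs at 0.5 times or less with induction and 0.993 over all tested IDs. Since the uninduced 24 h mean entered the choice of members, nothing is read from this ratio. The 2 members that rose with PAIR1 over time had the highest uninduced means at 24 h relative to 4 h, at 1.90 and 1.55 times, and both rose with KIRA9 at 4 h. The first is the member with the largest difference between the compounds at 4 h, which held 49.3, 48.6 and 52.3 CPM with PAIR1 at 24 h, against 35.1, 36.3 and 34.8 CPM with PAIR1 at 4 h (log2 change 0.48 ± 0.08 SE, edgeR adjusted p = 8.7e-05).

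The members were also set beside the 809 IDs that met the condition on induction but were not brought to 1.25 times by KIRA9. Of these 809, all of which were tested, 153 rose with KIRA9 against induced cells at 4 h (18.9%) and 28 fell (3.46%), compared with 20 and 0 of the 33 members (60.6% and 0%). With PAIR1 98 rose (12.1%), compared with 13 of 33 members (39.4%). For KIRA9 against PAIR1 at 4 h, 8 were higher (0.989%) and 6 lower (0.742%), compared with 11 and 0 members (33.3% and 0%). The median change for KIRA9 against PAIR1 was 0.19 over the members and -0.01 over the 809. For PAIR1 at 24 h against 4 h the order was reversed, with 73.5% of the 809 and 66.7% of the members lower. The median ratio of induced to uninduced cells at 24 h was 0.424 for the members and 0.381 for the 809. These 24 h values chose both sets, so nothing is read from this difference. The members were somewhat more abundant, with a median uninduced level of 72.4 CPM at 4 h against 48.8 for the 809, and their median SE for KIRA9 against induced cells at 4 h was 0.056 against 0.067. These shares are descriptions, and the difference between the sets was not tested.

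**Figure D4:**
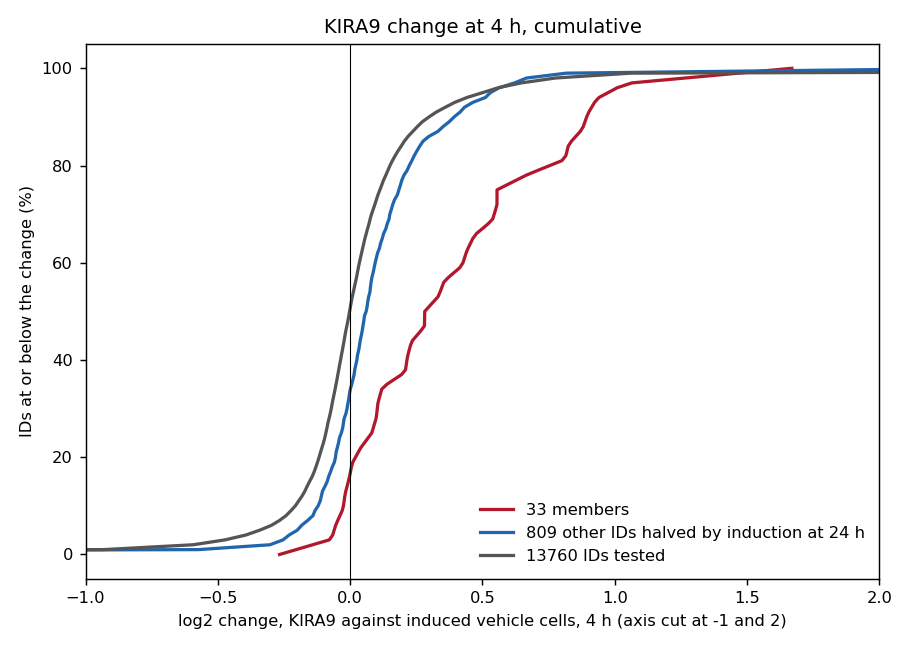
Cumulative share of IDs (vertical, %) at or below a given log2 change for KIRA9 against induced vehicle cells at 4 h (horizontal), for the 33 members, the 809 other IDs at 0.5 times or less with induction at 24 h, and the 13760 tested IDs. The medians are 0.28, 0.06 and -0.00, and the curve of the members lies to the right of the others except near its top, where the highest member stands at 1.67.

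The KIRA9 change at 4 h was also set beside the KIRA9 ratio at 24 h, as a description. Over the 33 members the log2 ratio of KIRA9 to uninduced cells at 24 h correlated with the log2 change from induced cells at 4 h with Pearson's r = 0.44 and Spearman's rho = 0.45. The 2 measures share no library, but the ratio is cut off at 1.25 by the choice of members, and members are not independent samples, so no relation is drawn from these coefficients. The 20 members that rose at 4 h had a median KIRA9 ratio of 1.38 at 24 h, and the 13 that did not pass had one of 1.29. Their median fitted changes with KIRA9 from induced cells at 4 h were 0.55 and 0.01 log2 units. Their median uninduced levels at 4 h differed as well, at 141 and 46.1 CPM, so that a given change was easier to call among the 20. For PAIR1 the corresponding measures, its ratio to uninduced cells at 24 h and its change from induced cells at 4 h, had r = 0.07 and rho = -0.04.

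**Figure D5:**
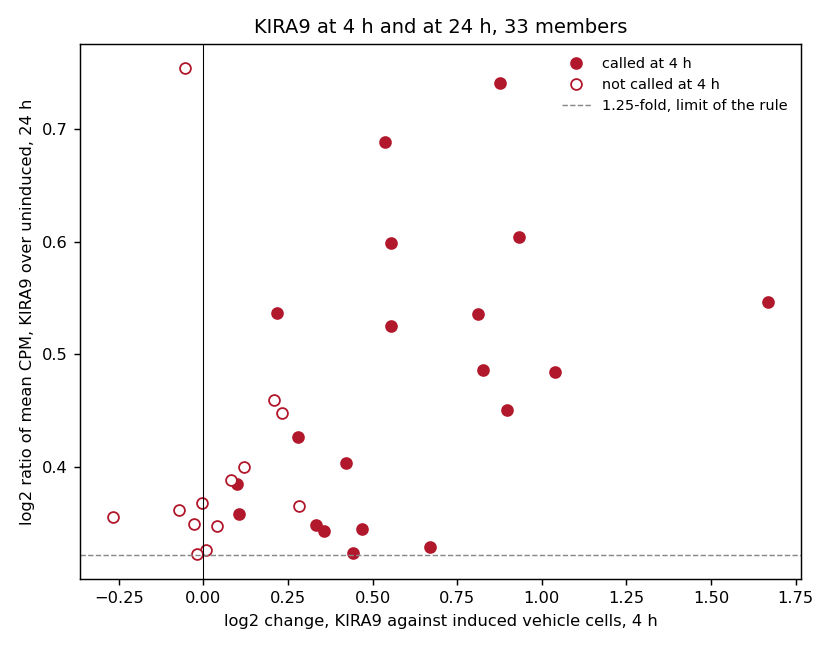
Log2 ratio of mean CPM, KIRA9 over uninduced cells at 24 h (vertical), against the log2 change with KIRA9 from induced cells at 4 h (horizontal), for the 33 members, filled where the 4 h change was called. The dashed line is the 1.25-fold limit of the choice; the topmost point, with a ratio of 1.69, lies near 0 at 4 h.

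The member with the highest KIRA9 ratio at 24 h, 1.69, showed no called change at 4 h. At 24 h it stood at 262, 266 and 258 CPM with KIRA9, 163, 162 and 164 CPM with PAIR1, 68.1, 66.1 and 70.4 CPM in induced and 142, 161 and 163 CPM in uninduced libraries. PAIR1 overlapped the uninduced libraries, and KIRA9 lay well above every other group. At 4 h its levels were 155, 145 and 153 CPM with KIRA9, 169, 159.6 and 161 CPM with PAIR1, 153, 159 and 157 CPM in induced and 156, 156 and 158 CPM in uninduced libraries. Its log2 change with KIRA9 at 4 h, -0.05 ± 0.04 (SE) from induced cells, did not pass the test (edgeR adjusted p = 0.52).

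The most abundant member differed in another way. It had 1192, 1155 and 1212 CPM with KIRA9 at 4 h, 1193, 1158 and 1201 CPM with PAIR1, 1115, 1112 and 1092 CPM in induced and 1127, 1127 and 1141 CPM in uninduced libraries. Both compounds stood slightly above the vehicle groups, and the rise from induced cells was 0.10 ± 0.02 (SE) with KIRA9 (edgeR adjusted p = 0.0090) and 0.10 ± 0.02 with PAIR1 (adjusted p = 0.020). KIRA9 and PAIR1 differed by -0.00 ± 0.02 log2 units at 4 h (adjusted p = 0.98). At 24 h it held 1316, 1334 and 1325 CPM with KIRA9, 1051, 1095 and 1023 CPM with PAIR1, 402.5, 399.7 and 399.8 CPM in induced and 1036, 996 and 1012 CPM in uninduced libraries.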

How the data were processed

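RNA-seq counts of 24 libraries were used. The authors deposited raw read counts per Ensembl gene ID, without normalization. Libraries were made from poly(A)-enriched RNA, per the labels' protocols, and HISAT2 and HTSeq are named without a version, per the submitters' processing notes. Build, annotation and strand handling are not given in the sources used here. Counts of overlapping genes and of close paralogs are therefore uncertain.

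Groups came from the titles. Levels are CPM on column totals, mean ± SD over 3 libraries. Tests used edgeR 4.0.16 in R 4.3.3: filterByExpr at a minimum count of 10 left 13760 IDs, scaling was by TMM, and all 24 libraries entered a single quasi-likelihood fit with 1 coefficient for each of the 8 groups. Each of 7 contrasts was adjusted over all 13760 IDs (Benjamini-Hochberg). The SE of a log2 change is its size over the root of the F statistic. The procedure was tested on simulated data. Alternatives included DESeq2 1.42.0. The labels do not say whether replicates were separate cultures, so the spread behind the p-values is that among these samples and may be technical. Replicates differed by more than sampling noise in every pair (chi-square per degree of freedom 3.63 to 19.5). A count of 0 would allow up to 3 counts, 0.126 to 0.238 CPM depending on the library, for counting error only.

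The members and the tests were chosen with earlier results of these data known. The 24 h uninduced, induced and KIRA9 libraries chose the members, so no contrast with them was tested. The IDs printed are the 2 members with the largest called rise with KIRA9 against induced cells at 4 h, at 5 CPM or more, and, since no fall was called there, the next 2 with the largest called fall for PAIR1 at 24 h against 4 h. Other members were singled out after their values had been seen. Gene lists prepared by symbol could not be applied, since 0 IDs matched a name.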

Additional observations from a re-analysis of the deposited data

How the results depend on the processing

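The counts of members called in the 7 contrasts stayed within 1.5 times the reported ones under RLE scaling, column totals alone, no filter on low counts, an adjusted p below 0.01, a fit of the compared libraries alone and the fit without the 6 libraries that stand apart. The last of these gave 18 members for KIRA9 and 10 for PAIR1 against induced cells at 4 h, 12 for KIRA9 against PAIR1, 0 for induction, 15 for KIRA9 and 7 for PAIR1 against uninduced cells, and 24 for PAIR1 over time. It called 7.17% of tested IDs for KIRA9 and 1.65% for PAIR1 against induced cells, in either direction. In the main fit these shares were 11.7% and 3.2%. DESeq2 moved 2 counts, to 2 members for induction at 4 h and 11 for PAIR1 against uninduced cells at 4 h. It called 0.509% and 2.74% of tested IDs there, in either direction. The cause was not tested. With the induced vehicle times taken from the conflicting time characteristic, 33 members were called for KIRA9 against induced cells, 33 for PAIR1 against induced cells and 33 for induction at 4 h; the libraries then taken as 4 h are those that chose the members, so this is no independent test. With 1 compared library left out the counts were 18 to 20 for KIRA9 and 9 to 11 for PAIR1 against induced cells, 11 for KIRA9 against PAIR1, 0 for induction, 15 to 17 for KIRA9 and 7 to 8 for PAIR1 against uninduced cells, and 21 to 24 for PAIR1 over time.

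The number of IDs that meet the conditions depended on the scaling: on TMM-scaled CPM it was 48, which held all 33. TMM rescaled every library, and which group's scaling mattered was not tested. Leaving out 1 of the 9 libraries gave 28 to 39. Leaving out the 3 that stand apart gave 32, of which 28 were among the 33, but with a single library left in one group. Correlations between the deviations of same-numbered libraries were low (-0.21 to 0.096 over the 7 contrasts), so the numbers were not taken to pair samples. In 2 contrasts, however, PAIR1 against induced and KIRA9 against uninduced cells at 4 h, all 6 libraries correlated best with their own number. The fit with the replicate block called 20 members for KIRA9 and 12 for PAIR1 against induced cells, 11 for KIRA9 against PAIR1, 0 for induction, 16 for KIRA9 and 7 for PAIR1 against uninduced cells, and 24 for PAIR1 over time. In the same order it called 11.7%, 3.17%, 2.06%, 0.32%, 10.9%, 2.57% and 34.3% of tested IDs, in either direction. Depth limits the least abundant members most: the SE of the log2 change for KIRA9 against induced cells at 4 h ran from 0.02 to 0.20.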
